A study of Mus musculus with 10 samples.

Results

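The 10 genes described here carry water and ions across the membranes of epithelial cells: the aquaporins Aqp1, Aqp3, Aqp4 and Aqp5, the epithelial sodium channel genes Scnn1a, Scnn1b and Scnn1g, the chloride channel gene Cftr, the sodium pump gene Atp1b1 and the cotransporter gene Slc12a2. They were chosen by symbol, and each was read from its brightest probe among the 19096 genes that had a probe with a symbol. All 10 passed the filter on dim probes, as did 15586 genes in all. Expression had been measured on single-colour Agilent whole-mouse-genome microarrays, 1 per sample, in 5 whole lungs (WT) and 5 whole lung squamous cell carcinomas (SCC) of mice aged 13 months and labelled as strain B6.129. WT mice were Lkb1f/f with no Cre, so that both groups carried the floxed allele of Lkb1, a kinase gene and tumour suppressor also named Stk11. SCC mice were CCSPiCre Lkb1f/f, in which Cre is driven by the promoter of the club cell gene Scgb1a1 and removes Lkb1 in airway epithelium, while the stroma and vessels of a tumour keep it. The labels give no sex and do not state whether each tumour came from a separate mouse, so p-values measure the spread between these samples only.

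Air spaces and airways are lined by a thin layer of liquid, and its depth is set by ion transport. In the resting lung, sodium enters epithelial cells through the apical epithelial sodium channel, built from an alpha (Scnn1a), a beta (Scnn1b) and a gamma (Scnn1g) subunit, and is pumped out across the basolateral membrane by the sodium pump. Water follows through aquaporins. Secreting cells, such as those of airway glands, run the flow the other way: Slc12a2 loads chloride into the cell, and Cftr lets it out on the apical side. Squamous epithelia such as epidermis are known for Aqp3, which also passes glycerol.

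The samples were checked before the comparison. Krt5 and Trp63, markers of basal and squamous cells, lay between 15.60 and 17.70 and between 12.13 and 13.45 on SCC arrays. They were at most 6.63 and 6.0005 on WT arrays. Of lung genes, Ager (-2.21), Scgb1a1 (-1.33), the endothelial gene Pecam1 (-1.601) and the haemoglobin gene Hba-a1 (-2.24) fell, and of 10 alveolar type 2 markers 7 fell and 1 was called lower. Sftpc stood at the top normalized value, 18.80, on all 5 WT arrays, so its difference is not read here. No probe was paired with Stk11, so the deletion was not checked. SCC replicate 5 stood apart with 90.2% of spots well above background, against 71.0% to 74.3% on the others. SCC replicate 2 stood apart in its marker lists, given below. The labels give no sex, and Xist was at 2.58 or less on WT replicate 3 and SCC replicate 2, at 4.33 on WT replicate 2, and between 13.75 and 14.19 elsewhere. SCC replicate 5 joined a high Xist (13.75) to the Y-linked Ddx3y at 8.34. Of 3 slides, slide 1 held WT replicates 1 to 4 and slide 3 held SCC replicates 4 and 5; the remaining WT array and 3 SCC arrays shared slide 2.

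Values are on the log2 scale of quantile-normalized signal, in which 1 unit is a doubling. Differences are SCC minus WT. A gene is said to have risen or fallen where limma's adjusted p was below 0.05, and a call also required at least a 2-fold difference. Among the 10 genes, 2 were called higher in SCC (Aqp3 and Aqp4) and 3 lower (Aqp1, Scnn1b and Scnn1g), against 11.6% of all tested genes called higher and 13.4% called lower. At adjusted p alone, 4 rose and 4 fell, against 25.5% and 28.4% of all tested genes. The 5 SCC values did not overlap the 5 WT values for 7 of the 10 genes, which held for 41.4% of all tested genes. Their median difference was 0.39, against -0.04 over all tested genes. Aquaporins and sodium channel subunits thus made up all 5 calls, and Cftr and Atp1b1 were the genes that did not pass.

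**Figure D1:**
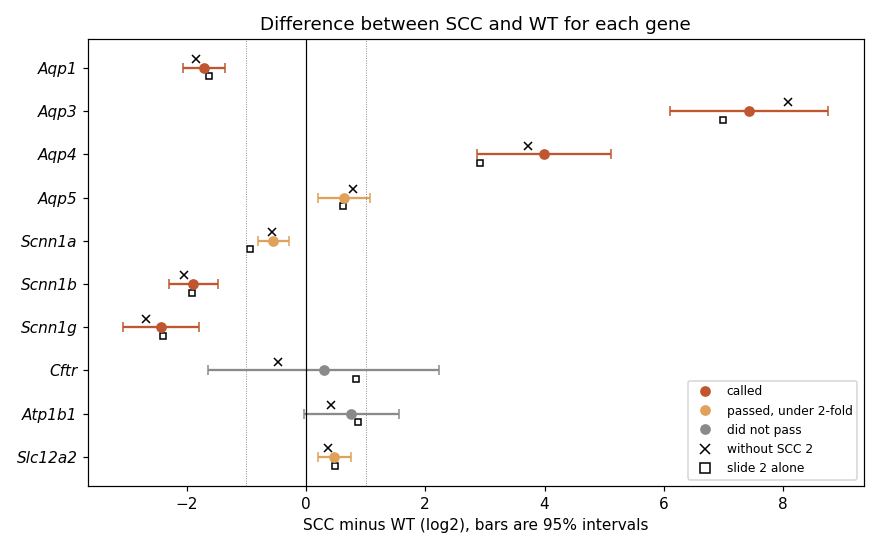
Difference in log2 signal between SCC and WT for each gene, with 95% intervals from limma over all 10 arrays. Crosses give the difference without SCC replicate 2, and squares give it on slide 2 alone. Aqp3 stood farthest above 0 (7.43) and Scnn1g farthest below (-2.42), and the interval of Cftr reached from -1.64 to 2.23.

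The letters upstream of a few genes are shown first, for the genes with the clearest shifts. Scnn1b and Scnn1g fell together and lie beside each other on chromosome 7, with no protein-coding gene between them. Aqp1 fell and Aqp3 rose. Each line holds the 150 bases before the annotated start, 5′ to 3′ on the gene's strand, from the RefSeq promoter table (GRCm38.p6). Capitals mark a TATA box (TATAAA) or a GC box (GGGCGG), searched on both strands.

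Scnn1b (chr7:121864888-121865037, + strand): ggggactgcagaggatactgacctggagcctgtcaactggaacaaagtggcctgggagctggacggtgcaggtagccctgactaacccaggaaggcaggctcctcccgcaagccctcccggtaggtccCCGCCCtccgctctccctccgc
Scnn1g (chr7:121734329-121734478, + strand): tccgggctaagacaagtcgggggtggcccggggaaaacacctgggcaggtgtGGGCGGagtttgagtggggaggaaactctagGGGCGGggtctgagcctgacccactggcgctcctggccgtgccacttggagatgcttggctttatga
Aqp1 (chr6:55336149-55336298, + strand): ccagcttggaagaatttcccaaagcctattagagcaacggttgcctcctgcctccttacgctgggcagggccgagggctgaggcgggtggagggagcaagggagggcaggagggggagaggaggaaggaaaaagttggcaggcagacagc
Aqp3 (chr4:41098184-41098333, - strand): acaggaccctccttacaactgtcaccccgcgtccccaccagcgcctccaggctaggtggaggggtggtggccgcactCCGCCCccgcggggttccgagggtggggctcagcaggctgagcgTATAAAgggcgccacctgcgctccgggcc

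Aqp3 carried a TATA box 29 bases before its start. Of 32851 promoters in the table, 12.4% held TATAAA and 32.7% held GGGCGG within 250 bases upstream. Aqp1, Aqp5, Scnn1b, Scnn1g, Cftr and Atp1b1, the other members read from that table, held no TATAAA in that window, and all held a GC box, with 6 upstream of Cftr. An AP-1 site (TGANTCA), which 6.75% of promoters held, was in none of the 7. GC content of these 7 windows was between 60.8% (Scnn1b) and 78.4% (Aqp5), against a median of 52.4%. These matches describe letters in a window and are not evidence of binding.

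**Figure D2:**
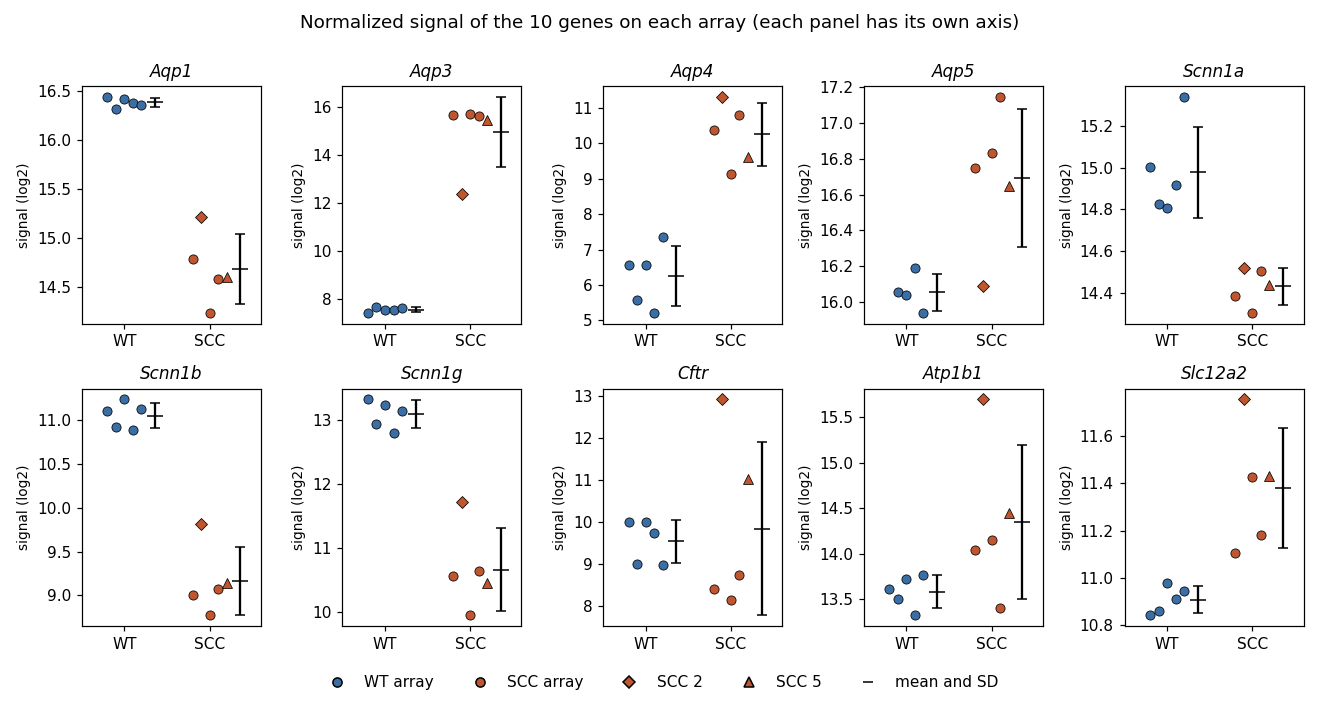
Log2 signal of each gene on every array, with the mean and SD of each group. Diamonds mark SCC replicate 2 and triangles SCC replicate 5. Aqp3, Aqp4 and Slc12a2 lay higher in all SCC arrays, and Aqp1, Scnn1a, Scnn1b and Scnn1g lower. SCC replicate 2 was the highest or lowest SCC array in every panel.

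Aquaporins did not move in 1 direction. Aqp3, the channel of basal and squamous epithelium, was at 7.41, 7.65, 7.53, 7.51 and 7.60 on WT replicates 1 to 5 and at 15.68, 12.38, 15.73, 15.62 and 15.47 on SCC replicates 1 to 5. WT arrays were close together, SCC replicate 2 lay between the groups, and the other 4 SCC arrays formed a tight group far above. The difference was 7.43 (SE 0.593, limma adjusted p 1.44e-05, exact permutation p 0.00794), or 173-fold higher in SCC. With normexp background correction the difference was 6.55, without SCC replicate 2 it was 8.08, and the SD of the remaining SCC arrays was 0.111. SCC replicate 2 alone was 28.5-fold above the WT mean. Over 9 squamous and basal markers, of which all 9 were called higher, the mean signal was between 4.94 and 5.50 on WT arrays, 10.86 on SCC replicate 2 and from 14.52 to 14.93 for the remaining tumours. Aqp3 and that list were thus lowest on the same SCC array. Whether more squamous cells or more Aqp3 RNA per cell stood behind the rise cannot be told apart in bulk tissue, and the same holds for each gene below.

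Aqp4, a water channel of airway epithelium and of brain astrocytes, was at 6.57, 5.57, 6.57, 5.22 and 7.35 on WT replicates 1 to 5 and at 10.38, 11.31, 9.14, 10.79 and 9.61 on SCC replicates 1 to 5. All 5 SCC arrays exceeded all 5 WT arrays, with the order among SCC arrays unlike that of Aqp3: SCC replicate 2 was the highest here. The difference was 3.99 (SE 0.5, limma adjusted p 0.000168, exact permutation p 0.00794), or 15.9-fold higher in SCC. The 2 other probes for Aqp4 differed by 3.62 (adjusted p 0.000567) and 3.85 (adjusted p 5.21e-05) in limma, the first of them well above background on 3 of 5 WT arrays. With normexp background correction the difference was 2.77 (adjusted p 5.26e-05). On slide 2, the slide that held arrays of both groups, the difference was 2.92, and with slide as a block the adjusted p was 0.0686. WT replicate 5, the WT array on that slide, had the highest WT value.

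Aqp5 is the apical water channel of alveolar type 1 cells and of gland acini. It was at 16.05, 16.04, 16.19 and 15.94 on WT replicates 2 to 5 and at 16.75, 16.09, 16.83, 17.15 and 16.65 on SCC replicates 1 to 5, with no value on WT replicate 1, where its spot carried an outlier flag and was left out. SCC replicate 2 lay within the WT range, and the other 4 SCC arrays lay above it. The difference was 0.64 (SE 0.194, limma adjusted p 0.0233, exact permutation p 0.0238), or 1.56-fold higher, which passed the threshold on p and was below 2-fold. It lost the threshold with slide as a block (0.62, adjusted p 0.264), with the replicate number as a block (0.62, adjusted p 0.0577) and without WT replicate 2, 3 or 5 or SCC replicate 3 (adjusted p 0.0517 to 0.0607). In the deposited matrix, which keeps a value of 15.58 for WT replicate 1, the difference was 0.74. The alveolar type 1 markers went the other way: all 9 measured were called lower, with a list mean of 14.85 to 14.98 on WT arrays and 12.80 to 13.48 on SCC arrays. The submucosal gland list (Bpifa1, Bpifb1, Dmbt1, Tff2, Muc5b, Lcn2 and Ltf) went the same way as Aqp5, with all 7 tested markers called higher. None of them was shown here to be limited to gland cells, and Dcpp1, also on the list, was too dim to be tested. The list mean was 6.08 to 8.19 on WT arrays and 13.12 to 15.44 on SCC arrays. It was highest on SCC replicate 2, where Aqp5 was lowest. The part of either cell type in the values of Aqp5 was not tested. Aqp5 was the only aquaporin of the 4 whose level on SCC replicate 2 was that of WT lung.

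Aqp1, the aquaporin of capillary endothelium and red cells, was at 16.45, 16.32, 16.42, 16.39 and 16.36 on WT replicates 1 to 5 and at 14.79, 15.21, 14.23, 14.58 and 14.60 on SCC replicates 1 to 5. WT arrays were close to each other, all SCC arrays were lower, and SCC replicate 2 was the SCC array nearest to WT. The difference was -1.71 (SE 0.160, limma adjusted p 3.34e-05, exact permutation p 0.00794), or 3.26-fold lower in SCC. Beside it, all 10 endothelial markers fell and 9 were called, with a list mean of 14.34 to 14.52 on WT arrays and 11.73 to 12.95 on SCC arrays, where SCC replicate 2 was again the highest. All 4 red cell markers tested were called lower, between 9.35 and 10.17 on WT arrays and 7.84 and 8.92 on SCC arrays. The part of either cell type in the fall of Aqp1 was not tested.

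**Figure D3:**
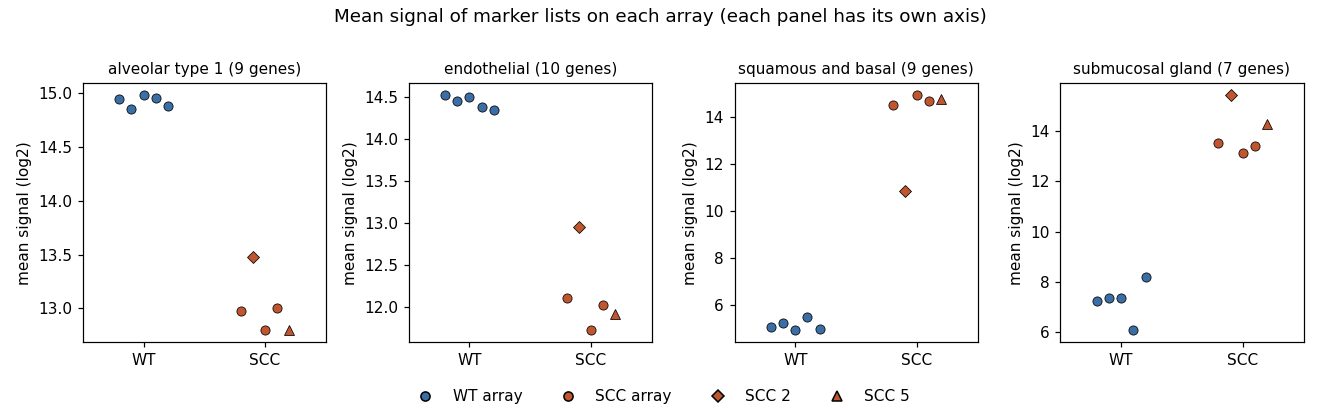
Mean log2 signal of 4 marker lists on each array, with diamonds for SCC replicate 2 and triangles for SCC replicate 5. Alveolar type 1 and endothelial lists were lower on all SCC arrays. SCC replicate 2 had the lowest squamous mean (10.86) and the highest gland mean (15.44) of the SCC arrays.

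All 3 sodium channel subunits fell, Scnn1b and Scnn1g by more than 2-fold and Scnn1a by less. Scnn1a, the alpha subunit that forms the pore with the others, was at 15.002, 14.83, 14.81, 14.92 and 15.34 on WT replicates 1 to 5 and at 14.39, 14.52, 14.31, 14.51 and 14.44 on SCC replicates 1 to 5. SCC arrays lay below WT arrays by a narrow gap, and their SD (0.0882) was smaller than that of WT arrays (0.216). The difference was -0.55 (SE 0.115, limma adjusted p 0.00339, exact permutation p 0.00794), or 1.46-fold lower, which passed the threshold on p and was below 2-fold. A dimmer second probe differed by -0.34 and did not pass (adjusted p 0.309). On slide 2 alone the difference was -0.93, where WT replicate 5 had the highest WT value.

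Scnn1b, the beta subunit, was at 11.09, 10.92, 11.23, 10.88 and 11.12 on WT replicates 1 to 5 and at 9.003, 9.82, 8.78, 9.07 and 9.14 on SCC replicates 1 to 5. Every SCC array was at least 1 unit below every WT array, with SCC replicate 2 the highest of them. The difference was -1.88 (SE 0.181, limma adjusted p 3.82e-05, exact permutation p 0.00794), or 3.69-fold lower in SCC. Scnn1g, the gamma subunit, was at 13.32, 12.94, 13.24, 12.79 and 13.13 on WT replicates 1 to 5 and at 10.56, 11.71, 9.94, 10.63 and 10.45 on SCC replicates 1 to 5. It showed the same order among SCC arrays at both ends, with SCC replicate 2 highest and SCC replicate 3 lowest. The difference was -2.42 (SE 0.284, limma adjusted p 0.000113, exact permutation p 0.00794), or 5.37-fold lower in SCC. Without SCC replicate 2, the falls were -2.05 for Scnn1b and -2.69 for Scnn1g. Across all 10 arrays the log2 values of these neighbouring genes had r = 0.994, and across the 5 SCC arrays r = 0.976, as a description of arrays that share group and tissue make-up. Scnn1a is on chromosome 6, and its r with Scnn1b was 0.889 over 10 arrays. Of the epithelial lists, those of squamous and gland cells were higher on SCC arrays, and those of alveolar, club and ciliated cells were lower on average. The club cell list lay between 16.40 and 16.90 on WT arrays and from 14.41 to 16.53 in tumours, with 3 of 6 markers called lower, and the ciliated list between 10.35 and 11.63 on WT arrays and from 8.81 to 10.83 in tumours, with 3 of 8 called lower. The part of any of these lists in the falls of the channel subunits was not tested.

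Cftr, the chloride and bicarbonate channel of secretory epithelium, differed more among tumours than between groups. It was at 9.99, 9.01, 10.001, 9.73 and 8.98 on WT replicates 1 to 5 and at 8.40, 12.92, 8.13, 8.72 and 11.03 on SCC replicates 1 to 5. WT arrays spanned about 1 unit. SCC replicates 1, 3 and 4 were below every WT array, while SCC replicates 2 and 5 were above every WT array. Their distances to the WT mean were 3.38 (10.4-fold) and 1.49 (2.80-fold). The difference was 0.30 (SE 0.866, limma adjusted p 0.793, exact permutation p 0.770), with a 95% interval of -1.64 to 2.23, and it did not pass. The SD among SCC arrays was 2.07, against 0.513 among WT arrays. The sign of the difference depended on these arrays: it was -0.47 without SCC replicate 2 (adjusted p 0.503) and -1.12 without both. Without both, limma's adjusted p was 0.00835. The 2 arrays left out held the highest Cftr values, so that p-value is not support for a fall. With array quality weights the difference was -0.92 (adjusted p 0.0752). A second, dimmer probe was well above background on 1 WT and 2 SCC arrays and was not tested. Its highest value, 7.22, was also on SCC replicate 2.

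Atp1b1, the beta subunit that brings the sodium pump to the cell surface, was at 13.61, 13.50, 13.72, 13.32 and 13.76 on WT replicates 1 to 5 and at 14.04, 15.69, 14.15, 13.40 and 14.45 on SCC replicates 1 to 5. SCC replicate 4 lay within the WT range, the other SCC arrays lay above it, and SCC replicate 2 stood highest. The difference was 0.76 (SE 0.355, limma adjusted p 0.09996, exact permutation p 0.0476), with a 95% interval of -0.03 to 1.56, and it did not pass. It passed without SCC replicate 4 (0.9988, adjusted p 0.0320), and without SCC replicate 2 the difference was 0.43. Slc12a2, which brings sodium, potassium and chloride into the cell together, was at 10.84, 10.86, 10.98, 10.91 and 10.95 on WT replicates 1 to 5 and at 11.10, 11.75, 11.43, 11.18 and 11.43 on SCC replicates 1 to 5. WT arrays were close together, and the lowest SCC array lay above the highest WT array. The difference was 0.47 (SE 0.124, limma adjusted p 0.0108, exact permutation p 0.00794), or 1.39-fold higher, which passed the threshold on p and was below 2-fold. With slide as a block its difference was 0.48 and its adjusted p 0.231.

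Cftr, Atp1b1 and Slc12a2 each had their highest value of all 10 arrays on SCC replicate 2. The submucosal gland list, of which all 7 tested members were called higher, had its highest mean there too (15.44), followed by SCC replicate 5 (14.29), with the other SCC arrays between 13.12 and 13.54 and WT arrays between 6.08 and 8.19. Cftr had the same first and second array. The part of gland cells in these values was not tested. Across all 10 genes SCC replicate 2 was the highest SCC array for 8 and the lowest for Aqp3 and Aqp5. Over all tested genes with 5 SCC values it was the highest or lowest SCC array in 69.8%, so that a far position on this array was common to most genes. SCC replicate 3 was at an end for 7 of the 10 (39.0% of all genes) and SCC replicate 5 for none (41.3% of all genes). SCC replicate 2 was also the only SCC array with low Xist, so that sex and array cannot be told apart there. With Xist level as a block, chosen after seeing the data, Atp1b1 differed by 0.90 and passed (limma adjusted p 0.0436), and the other 9 genes kept their side of the threshold.

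**Figure D4:**
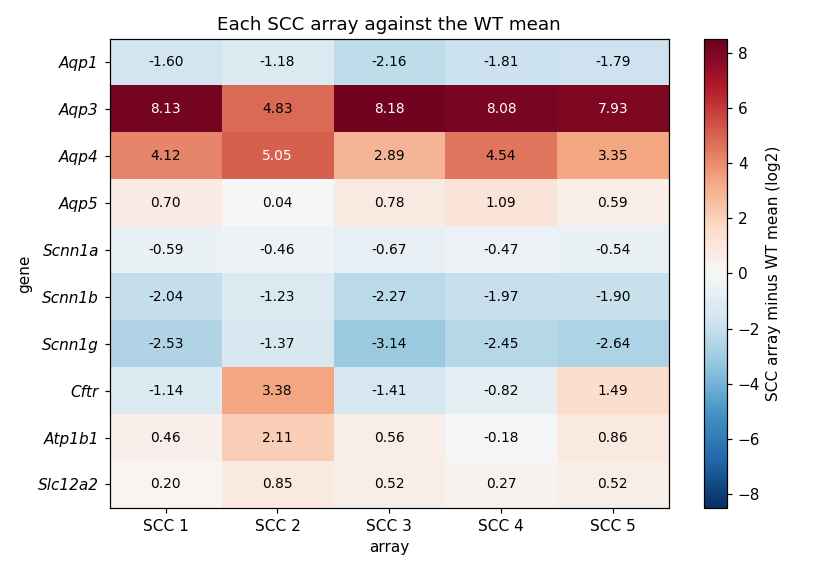
Difference of each SCC array from the WT mean in log2 units, for each gene (rows) and SCC replicate (columns). Red is above and blue below the WT mean. The falls of Aqp1, Scnn1a, Scnn1b and Scnn1g and the rises of Aqp3 and Aqp4 were seen on all 5 arrays. Slc12a2 and Aqp5 also lay above the WT mean on all 5, Aqp5 by 0.04 on SCC replicate 2. Cftr lay above the WT mean on SCC replicates 2 and 5 and below it on the other 3.

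Genes with the most similar profile to each of the 10 were read from 14108 other genes well above background on all 10 arrays, as a description only, since a group difference alone gives a high r. Aqp3 was closest to Perp, Fam83h and Dsp (r of 0.998 each), of which Perp is also on the squamous list. Aqp1 was closest to Tspan13 and Plxdc2 (both 0.999) and Tbx3 (0.998). Aqp4 was closest to the tight junction gene Lsr (0.993), the transcription factor gene Sox2 (0.989) and Adam28 (0.988). Scnn1b was closest to Mylk and Pon1 (both 0.998) and Pcdhga9, and Scnn1g to Pgap4 (0.999), Ttc28 and Cdk14. Genes with a smaller or uneven difference had lower values. Cftr was closest to Ndufaf2 (0.965), Ugt2b34 (0.954) and the microvillus gene Vil1 (0.948), Atp1b1 to Ly6g5c (0.982), Cyp4a12a and Agps, and Slc12a2 to Pex16 (0.973), Golph3 and Tbrg1. Scnn1a was closest to Phka2 (0.978), Setd1b and Hnrnpdl, and Aqp5, over 9 arrays, to Pla2g4f (0.991), Polr3g and H2ax.

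Other genes of the same routes were read from 6 lists holding 82 genes, of which 80 had a probe and 68 were tested. Of these, 17 were called higher and 8 lower, against 11.6% and 13.4% of all tested genes, with a median difference of 0.35. Of 8 other aquaporins, 4 were tested and none was called. Aqp2, which lies next to Aqp5 on chromosome 15, rose by 0.70 (adjusted p 0.00674), and Aqp11 fell by 0.32 (adjusted p 0.0278). Mip, Aqp6, Aqp7 and Aqp12 were not tested, since no WT array and at most 2 SCC arrays showed them well above background.

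Sodium channel regulators are proteases, kinases and hormone receptors that set channel number and opening. Of 11 tested, 4 were called higher (11.6% of all tested genes) and 1 lower (13.4% of all), with a median of 0.35. The 4 were membrane proteases of the channel and an inhibitor: St14, or matriptase, was higher by 2.09 (adjusted p 1.80e-06, 4.26-fold), its inhibitor Spint1 by 1.74 (adjusted p 6.96e-06), Tmprss4 by 1.72 (adjusted p 5.08e-05) and prostasin, Prss8, by 1.53 (adjusted p 0.000188). St14 lay between 10.80 and 11.21 on WT arrays and between 12.94 and 13.31 on SCC arrays, with no array apart. Second probes of St14 and Spint1 differed by 2.67 and 1.63. The gene called lower was Nr3c1, the glucocorticoid receptor, at -1.49 (adjusted p 6.35e-05), with 3 other probes at -0.69, -1.39 and -1.46 that all passed; its brightest probe had no value on 1 WT array, where the spot carried an outlier flag, and so it is named outside the rule and after its values were seen. Of the other proteases of the list, named after their values were seen, Tmprss2 did not pass (0.13, adjusted p 0.698). Furin rose by 0.35 (adjusted p 0.0279). A link between these proteases and the falls of the 3 channel subunits was not tested.

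**Figure D5:**
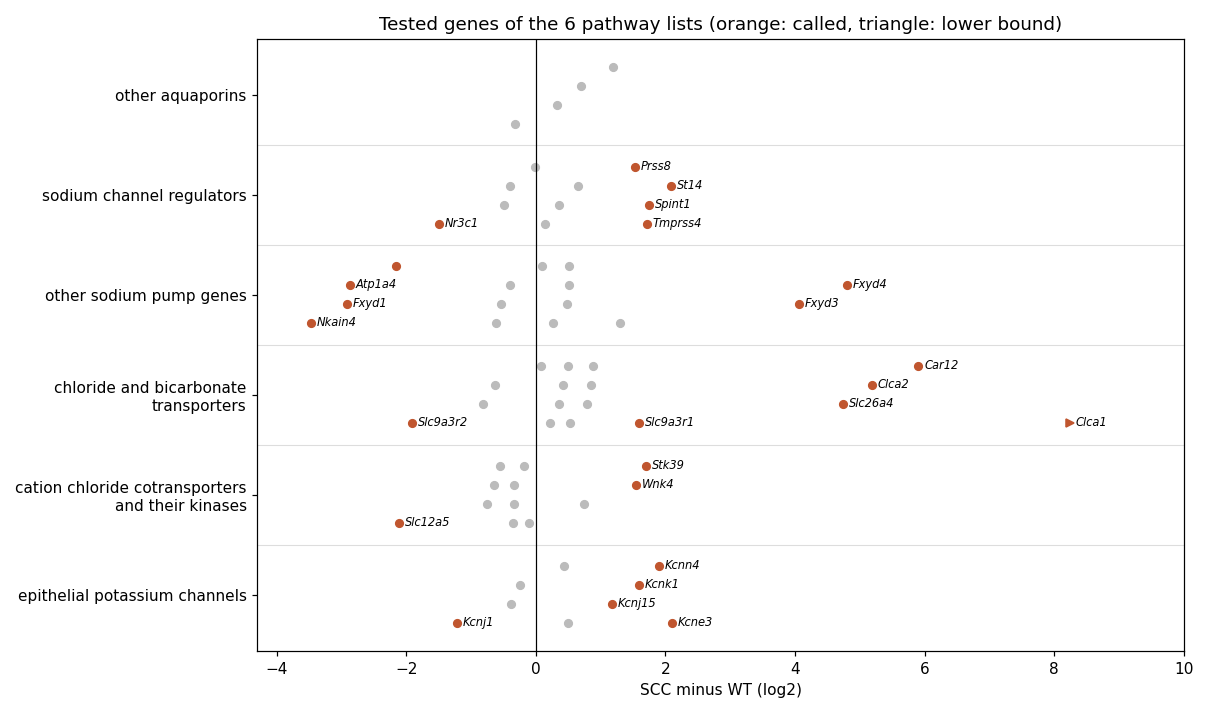
Difference in log2 signal, SCC minus WT, of the 68 tested genes of 6 transport lists, with called genes in orange, all but 1 of them named. Each list held genes on both sides of 0. The triangle of Clca1 stands at the bound of 304-fold from the main background correction, because no WT array showed it well above background.

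Of 15 other sodium pump genes, 2 were called higher, a share near the 11.6% of all tested genes, and 4 lower, against 13.4%, with a median of 0.09. Both called higher are small regulatory proteins of the pump: Fxyd4 was higher by 4.80 (adjusted p 0.000309) and Fxyd3 by 4.06 (adjusted p 2.13e-07). Fxyd3 was even across tumours, between 11.51 and 11.78, whereas Fxyd4 ranged from 12.09 to 13.48 in 4 tumours and was at 9.61 on SCC replicate 2. Lower were Nkain4 (-3.48, adjusted p 9.27e-06, second probe -2.16) and Fxyd1, known from heart and muscle (-2.92, adjusted p 0.000179). Atp1a4, known from sperm, was lower in fitted signal (-2.87) but well above background on 1 SCC array only; it falls outside the rule for named genes and was added after its values were seen. A mesothelium list, with all 4 tested markers called lower, lay between 10.42 and 10.96 on WT arrays and 4.61 and 6.73 on SCC arrays, and its part in the fall of Nkain4 was not tested. A muscle marker list, with 4 of 6 called lower, lay between 9.73 and 12.73 on WT arrays and 8.57 and 9.51 on SCC arrays, and its part in the fall of Fxyd1 was not tested. With slide as a block, Fxyd4 (4.44, adjusted p 0.0685) and Fxyd1 (-2.5003, adjusted p 0.0512) lost the threshold. With normexp the differences were 4.01 for Fxyd4, 3.29 for Fxyd3 and -0.56 for Atp1a4, which was then under 2-fold, and without SCC replicate 2 Fxyd4 differed by 5.48.

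Of 17 tested chloride and bicarbonate transporters and partners, 5 were called higher, against 11.6% of all tested genes, and 1 lower, against 13.4%, with a median of 0.53. Clca1 is a secreted protein of mucous cells that acts on calcium-activated chloride channels. It was well above background on no WT array and on all SCC arrays. With the main background correction, it was at least 304-fold higher in mean SCC signal (limma adjusted p 0.000446). It ranged widely among tumours, with 6.86 on SCC replicate 2, 10.47 on SCC replicate 4 and 14.58 to 14.88 elsewhere. Slc26a4, or pendrin, which exchanges chloride for bicarbonate, was higher by 4.75 (adjusted p 0.00108), with the same 2 arrays lowest at 12.10 and 13.90. Slc9a3r1, a scaffold that binds Cftr at the apical membrane, was higher by 1.597 (adjusted p 0.00565), and its relative Slc9a3r2 was lower (-1.91, adjusted p 5.92e-05). Car12, a surface carbonic anhydrase (5.90), and Clca2 (5.19) were called too, but were well above background on 2 and 1 WT arrays. Both are therefore named outside the rule and after their values were seen. A second Car12 probe was well above background on no WT array and 2 SCC arrays, and was not tested. With slide as a block, Clca1 (9.92, adjusted p 0.0646), Clca2 (5.43, adjusted p 0.0586) and Slc9a3r1 (0.98, adjusted p 0.356) lost the threshold, and Car12 (4.29) and Slc26a4 (5.89) kept it. Fitted differences of the dim genes depended on the background correction: with normexp Clca1 differed by 5.65 (9.78 without), Car12 by 2.47 and Clca2 by 2.23. Without SCC replicate 2 they were 11.14 for Clca1, 6.03 for Clca2 and 5.46 for Slc26a4.

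Of 12 tested cation chloride cotransporters and their kinases, 2 were called higher and 1 lower, shares near the 11.6% and 13.4% of all tested genes, and 2 rose and 5 fell at adjusted p alone, against 25.5% and 28.4%, with a median of -0.34. Stk39, the kinase that switches on Slc12a2, was higher by 1.70 (adjusted p 3.34e-05) and Wnk4, which acts upstream of it, by 1.55 (adjusted p 0.000300). Slc12a5, the potassium chloride cotransporter of neurons, was lower (-2.12, adjusted p 8.55e-05). Of the other kinases of the list, named after their values were seen, Oxsr1, which resembles Stk39, fell by 0.35 (adjusted p 0.0140), and Wnk1 fell by 0.76 (adjusted p 0.00256). Wnk2 did not pass (0.75, adjusted p 0.263), and Wnk3 was too dim to be tested.

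Of 9 tested epithelial potassium channels, 4 were called higher, against 11.6% of all tested genes, and 1 lower, near the 13.4% of all, with a median of 0.49. Kcne3, the partner of the basolateral channel Kcnq1, was higher by 2.10 (adjusted p 3.75e-05, second probe 2.05), the calcium-activated channel Kcnn4 by 1.90 (adjusted p 1.80e-05), Kcnk1 by 1.59 (adjusted p 0.000218) and the inward rectifier Kcnj15 by 1.17 (adjusted p 0.00559). Kcnk1 reached 12.66 on SCC replicate 2, while the remaining tumours lay between 11.49 and 11.78. Among SCC arrays, Kcnj15, Kcnj1, Kcnq1, Kcne2 and Kcnj10 were highest there too, and Kcne3, Kcnn4 and Kcnk5 were not. Of these, Kcnq1, Kcne2, Kcnj10 and Kcnk5 are named after their values were seen. SCC replicate 2 was the highest SCC array for 39.2% of all tested genes with 5 SCC values, so this position was not particular to Kcnk1. Kcnj1, a renal channel, was called lower (-1.21) but was well above background on 1 SCC array only, and is named outside the rule and after its values were seen. With slide as a block, Kcnj15 (1.33, adjusted p 0.104) and Kcnj1 (-0.80, adjusted p 0.276) lost the threshold. Kcnj1 also lost it with 75th percentile scaling (-0.69, adjusted p 0.342), and with normexp both were under 2-fold (0.36 and -0.21).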

How the data were processed

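The deposited scanner files, which per the file headers and labels the authors made with Agilent Feature Extraction 12, hold a background-subtracted processed intensity per spot, median intensities of spot and surroundings, and flags. A log2 matrix deposited by the authors was used to choose each gene's probe (the highest mean over the 10 arrays) and as an alternative. Control spots and those with an outlier flag were dropped, repeated spots were averaged as log2 intensity, and arrays were quantile-normalized, as the study's methods state. A probe counted as well above background if 0.5 or more of its spots had that flag, and the 30374 probes for which this was so on 4 or more arrays of either group were tested. No array duplicated another (highest r between arrays 0.993). The number of arrays limits the precision.

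Accessions were paired with symbols through RefSeq genes (GRCm38.p6) for 28223 probes (68.5%). Group differences came from limma 3.58.1 (R 4.3.3), fitted over all 10 arrays, without covariates, with Benjamini-Hochberg adjustment over all tested probes; the study's methods name an analysis of variance, whose per-probe form for both groups was an alternative. The code was tested on simulated data. Single genes also had an exact two-sided permutation test over arrays, which cannot give a p under 0.00794. Where a gene was well above background on no array of a group, its fold is a bound against, per array, the higher of the lowest signal well above background and its own. Alternatives were other scaling, normexp (with median spot signal, since a mean was not used here), filters, slide and replicate blocks, weights and left-out arrays. With 75th percentile scaling, the median difference of all tested probes moved from -0.09 to 0.03. The replicate numbers did not pair the samples (r of deviations between -0.099 and 0.009).

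Named genes are the 10 with all their probes, from each list up to 4 called genes per direction that were well above background on all arrays, and genes seen in 1 group only, given as a bound. The members and lists were chosen with earlier results of these data known. 1 called list gene is counted but not reported here by name.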

Additional observations from a re-analysis of the deposited data

Results flagged for a closer look

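Aqp3 on SCC replicate 2 lay far below the other SCC arrays, at 12.38 log2 units against 15.47 to 15.73, a gap of 0.924 of the group's whole range. Of 20 sets of values examined (10 genes in 2 groups), it was the only one past Dixon's value of 0.71 for 5 samples, and chance passes about 1 in 20.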

How the results depend on the processing

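Aqp1, Aqp3, Scnn1b and Scnn1g kept their direction and their side of the threshold under every alternative run. Scnn1a did so too, at under 2-fold, although its second probe alone did not pass. With slide as a fixed block, in which slide 2 alone compares the groups, Aqp4 (2.92), Aqp5 (0.62) and Slc12a2 (0.48) lost the threshold and 1 member was called higher, against 2. On slide 2 alone, Aqp4 differed by 2.92 and Scnn1a by -0.93. With the replicate block, Aqp5 (0.62, adjusted p 0.0577) lost the threshold and no other of the 10 genes changed, although the numbers do not pair the samples. Under the per-probe form of the study's analysis of variance, at an unadjusted p below 0.01 that was set here, Aqp5 (0.64) did not pass. Cftr turned lower with array quality weights (-0.92), without SCC replicate 2 (-0.47) and without both SCC replicates 2 and 5 (-1.12, passed). Those 2 arrays held its highest values, so that passing without them is not support for a fall. With Xist level as a block, chosen after seeing the data, Atp1b1 passed (0.90). With adjusted p alone, 4 members were called higher, and 44 genes of the lists were called, against 25. Leaving out 1 array at a time or SCC replicates 2 and 5 together, Cftr ranged from -1.12 to 0.73, Aqp5 from 0.53 to 0.86 and Atp1b1 from 0.28 to 0.9988; Aqp5 lost the threshold without WT replicate 2, 3 or 5 or SCC replicate 3, and Atp1b1 passed without SCC replicate 4. The cause of these changes was not tested, beyond the fewer arrays that a block or a left-out array leaves. Of the 25 list genes called, 8 lost the threshold with slide as a block, 1 (Kcnj1) with 75th percentile scaling, and none on p under the other alternatives that tested them. With normexp 22 list genes were called, since Kcnj1, Kcnj15 and Atp1a4 were then under 2-fold, and with only probes well above background on all arrays 19 of the 25 were tested and called.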
